A study of Mus musculus with 24 samples.

Results

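The pancreas of mice with 1 intact copy of Nr5a2 was compared with that of mice with both copies, in animals that had received saline only. The comparison was defined by genotype and treatment alone, and it rests on 6 of the 24 libraries of the series. In 3 of them the animals were heterozygous (Nr5a2 +/-, called HET here), and in the other 3 they were wild-type (+/+, called WT). All were C57BL mice, and polyadenylated RNA of the whole pancreas was sequenced. The other 18 libraries come from HET and WT mice given 7 hourly injections of caerulein at 50 µg/kg and killed 8, 24 or 48 h after the first injection, with 3 animals in each group. The labels give no age, sex or litter. The genotype is that of the whole animal, with no tissue-specific driver named, so a difference in a whole-pancreas sample can come from any of its cell types.

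Nr5a2 (also called LRH-1) is a nuclear receptor that binds DNA as a monomer. In acinar cells, which make and secrete the digestive enzymes and form most of the exocrine pancreas, it acts with the PTF1 complex on enzyme genes. In liver it is known for bile acid and lipid genes, and in gut and ovary for local steroid synthesis. Caerulein mimics cholecystokinin and overstimulates acinar cells, which causes a mild and reversible pancreatitis.

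Levels are the authors' FPKM, which divide the fragments of a gene by its transcript length and the size of the library. A difference is HET minus WT in means of log2(FPKM + 1), given with its standard error, and this scale understates changes of genes at a few FPKM or less. The limma test covered genes that reached 1 FPKM in 3 or more of the 24 libraries, and "higher", "lower" or "called" is used of genes at an adjusted p under 0.05. Where 3 values are given for a group they are those of replicates 1, 2 and 3, which carry no order and no pairing.

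The steps between low FPKM values give the depth of a library relative to WT replicate 1. It was 0.771 and 0.806 in the other WT libraries and 0.509, 1.09 and 0.928 in the HET libraries, so HET replicate 1 was the shallowest of the 6. Only 18.6% to 22.5% of low genes sat at the commonest step ratio, so these depths are estimates. Libraries of the same genotype correlated at Pearson r = 0.912 to 0.9313 across genes, and libraries of different genotype at 0.88 to 0.9241. Xist, the X-inactivation RNA of female cells, was at 0, 0.0119 and 8.93 FPKM in WT and at 11.1, 9.13 and 0 in HET. Eif2s3y, a Y-linked gene, was at 5.63, 4.85 and 0 FPKM in WT and at 0, 0 and 3.66 in HET, so female transcripts were found in 1 WT and 2 HET libraries. The labels place the saline libraries in the earlier of 2 library preparation guides, except WT replicate 3, which is in neither guide's list. Acinar identity was plain in every library by Ptf1a, Rbpjl and Bhlha15, described below, while Cel, Cpa1 and Pnlip were listed at 0 in all 6. Pnliprp1 was listed at 0 in the 3 WT libraries and at 49600, 33300 and 37400 FPKM in HET, and 16 genes of this kind, with zeros in a whole saline group against at least 100 FPKM in each library of some other group, were treated as missing and not compared.

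Nr5a2 itself stood at 12.6, 9.26 and 10.2 FPKM in WT and at 9.09, 8.01 and 8.79 in HET. The 2 groups did not overlap, but the gap between the lowest WT and the highest HET library was small. WT averaged 10.7 ± 1.72 (SD, n = 3) and HET 8.63 ± 0.557, a difference of −0.27 ± 0.19 (adjusted p = 0.448). With caerulein the differences were −0.29, −0.22 and −0.39 at 8, 24 and 48 h, and their mean was −0.30 ± 0.11 (adjusted p = 0.0672). With marker means as covariates the saline difference was −0.019 (adipocyte), −0.14 (B cell) and −0.016 (islet). Without covariates the mean Nr5a2 level in HET was below that of WT in each condition, but none of these differences passed the test. Where on the transcript the inactivated allele is altered is not stated in the labels, and RNA of that allele could be counted too.

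Over all 12855 genes tested, 303 were called, which is 2.36%. Of these, 148 were higher in HET (1.15% of genes tested) and 155 were lower (1.21%). The median difference over all genes was 0. The median size of the called differences was 1.04 with a median standard error of 0.22 among the higher genes, and −0.71 with 0.16 among the lower genes. Values of the 3 HET and 3 WT libraries did not overlap in 2240 genes, 17.4% of those tested, and in 143 of the 148 higher and 153 of the 155 lower genes. Leaving out a single library changed the calls, and 30 of the higher genes (20.3%) and 28 of the lower genes (18.1%) were called in each of the 6 fits with 1 saline library left out. The total ranged from 117 genes without HET replicate 2 and 151 without WT replicate 1 to 437 without HET replicate 1. The spread was taken from all 8 groups: a fit of the 6 saline libraries alone called 1 gene, and a fit of the saline and 24 h groups alone, whose libraries are listed under the earlier guide except for WT saline replicate 3, called 38. Scaling each library to its total without acinar secretory genes left 10 calls, among them Bdh2, Fasn, Il4i1, Lypd1, Me1, Ppp1r1b and Tonsl. Another scaling used the median ratio over genes above 1 FPKM in all 24 libraries. It gave 277 calls, 267 of them among the 303.

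**Figure D1:**
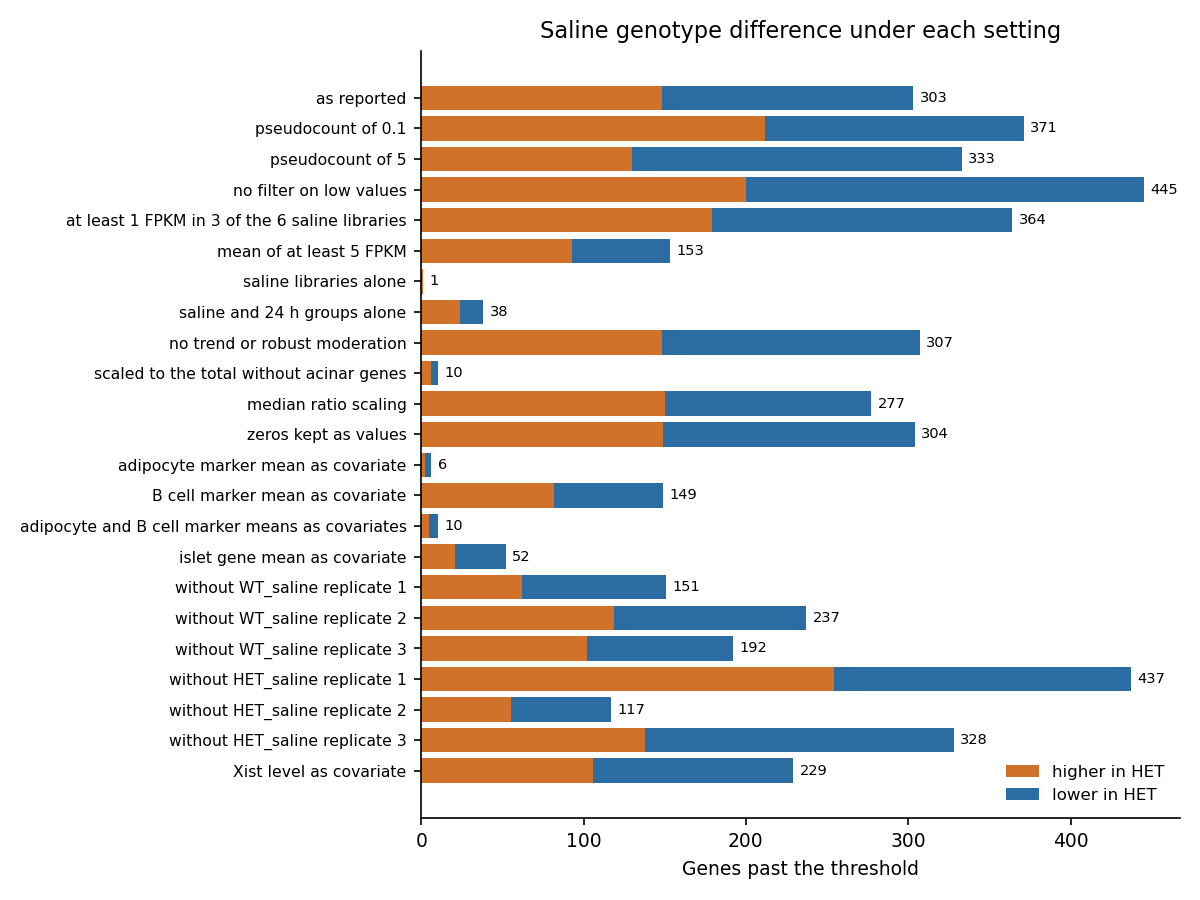
Number of genes past the threshold (adjusted p under 0.05, horizontal axis) for the saline genotype difference as reported and under each alternative setting (vertical axis), split into genes higher (orange) and lower (blue) in HET. The count is 303 as reported, between 117 and 437 with 1 library left out, 6 with the adipocyte marker mean as a covariate and 10 after scaling to the total without acinar genes.

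Genes that make fatty acids and triglycerides were among the higher ones. Of 21 tested members of that list, 7 were higher in HET and none was lower, with a median of 0.48 over all 21. Fasn, fatty acid synthase, was at 15.4, 13.1 and 9.84 FPKM in WT and at 60.5, 131 and 61.4 in HET, a difference of 2.55 ± 0.36 (adjusted p = 0.00105). Me1, the malic enzyme that supplies NADPH for this synthesis, was at 1.01, 1.57 and 0.563 FPKM in WT and at 7.63, 28.1 and 5.98 in HET (2.59 ± 0.35, adjusted p = 0.001). For both genes the lowest HET library was far above the highest WT library, and both were called in each fit that left out 1 saline library. Thrsp, a regulator of lipogenesis, was at 0.86, 1.49 and 1.42 FPKM in WT and at 15.5, 41.2 and 9.43 in HET (3.11 ± 0.61). Scd1, the stearoyl-CoA desaturase, was at 5.49, 13.6 and 20.3 FPKM against 53, 235 and 112 in HET (3.16 ± 0.71), and Dgat2, which completes triglycerides, was at 0.677, 1.46 and 2.24 FPKM against 6.95, 24.2 and 10.6 (2.48 ± 0.55). HET replicate 2 was the highest library for each of these 5 genes. Elovl6, a fatty acid elongase, was higher at a low level, with 0.322, 0.313 and 0.233 FPKM in WT and 0.579, 3.25 and 1.21 in HET (0.93 ± 0.23). With 1 saline library left out, Dgat2 was called in 3 and Elovl6 in 2 of the 6 fits. The genes of this list that encode the transcription factors of lipogenesis were not called: Srebf1 was at 19.6, 20.9 and 14.5 FPKM in WT and 9.23, 16.5 and 19 in HET, and Mlxipl at 0.785, 1.19 and 1.28 against 1.03, 2.56 and 1.26.

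Markers of fat cells differed between the same libraries. The mean log2(FPKM + 1) of the 12 adipocyte markers was 0.85, 2.42 and 2.18 in the WT libraries against 3.30, 4.54 and 3.97 in HET, without overlap, and their summed level was 45 to 147 FPKM in WT and 317 to 779 in HET. All 12 were above 0 in the HET libraries, and 1 was at 0 in WT replicate 1. Adipoq, the adipocyte hormone adiponectin, was at 0.458, 6.26 and 3.86 FPKM in WT and at 23.9, 79.9 and 47.1 in HET (3.63 ± 1.05, adjusted p = 0.0751), and Cfd, adipsin, at 1.28, 49.1 and 19.1 against 86.2, 253 and 152 (3.51 ± 1.32, adjusted p = 0.153). Of the 12 markers, 2 were called, both higher: Retn (resistin), at 0, 1.19 and 2.28 FPKM in WT and 13.1, 32.5 and 7.67 in HET, and Adig, at 0.359, 1.41 and 1.78 against 4.25, 10.8 and 4.44. Adig was called in 1 of the 6 fits that left out 1 saline library. Ucp1, the defining gene of brown fat, was at 0 in all 6 libraries. In tissue samples of this kind, more cells of a type and more RNA per cell cannot be told apart.

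The caerulein animals, which are not in the saline comparison, show which genes go with adipocyte transcripts between animals of 1 group. The slope of each gene on the adipocyte marker mean was fitted over the 18 caerulein libraries with 1 mean per group, and 363 genes had a positive slope past the threshold (2.83% of 12845) and 24 a negative one (0.187%). Of the saline calls with a slope, 18 of 147 higher genes (12.2%) had a positive slope and none of the 155 lower genes did. Scd1, Dgat2 and Thrsp were among the 18, with slopes of 0.99 (adjusted p = 0.000157), 0.75 (adjusted p = 0.00446) and 0.86 (adjusted p = 0.00202) in log2 units per log2 unit of the marker mean. So was Trf, transferrin, at 10.4, 18.7 and 22.5 FPKM in WT and 53.4, 171 and 104 in HET (slope 0.99, adjusted p = 1.3e-05). Fasn and Me1 had slopes of 0.36 and 0.19 that were not past the threshold (adjusted p = 0.0982 and 0.092). Of the 12 adipocyte markers, which make up the mean themselves, 11 had a positive slope. The count of 387 in both directions fell to 164, 82 and 31 without the 8, 24 or 48 h groups, while the genes at an unadjusted p under 0.05 went from 2483 to 1993, 1714 and 2440.

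**Figure D2:**
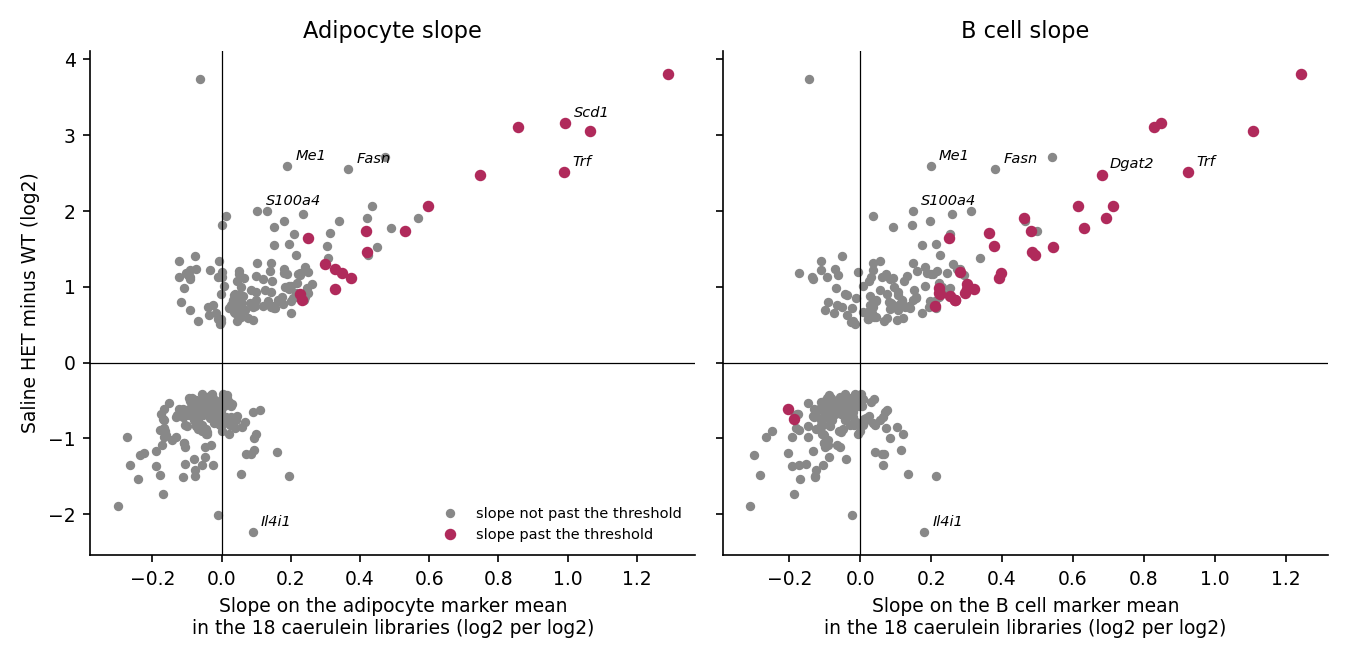
Saline HET minus WT difference (log2, vertical axis) of the called genes against their slope on the adipocyte (left) or B cell (right) marker mean in the 18 caerulein libraries (log2 per log2, horizontal axis); each point is a gene, purple where the slope is past the threshold. Purple points lie among the genes with large positive differences, with Scd1 and Trf near a slope of 0.99 on the left, while Fasn, Me1 and S100a4 are grey and all but 2 of the genes lower in HET are grey in both panels.

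With the adipocyte marker mean as a covariate in the fit of all 24 libraries, all 148 higher and all 155 lower genes kept their sign, and 6 genes were called. The median difference of the higher genes was then 0.75 (median standard error 0.26), and that of the lower genes −0.63 (0.19). The 6 genes were Pgd and Tonsl, higher, and Gpc1, Il4i1, Pik3ap1 and Ppp1r1b, lower. Fasn stood at 1.88 ± 0.39 (adjusted p = 0.0689) in that fit and Me1 at 2.04 ± 0.41 (adjusted p = 0.0523), while Scd1 stood at 0.96 ± 0.34 (adjusted p = 0.25), Thrsp at 1.44 ± 0.46 (adjusted p = 0.225) and Dgat2 at 0.89 ± 0.37 (adjusted p = 0.323). The marker mean does not overlap between the saline genotypes, so in these 6 libraries the covariate and the genotype are partly the same quantity.

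Pgd and Ldha, enzymes of glucose metabolism, were among the higher genes with the smallest adjusted p. Pgd, a dehydrogenase of the pentose phosphate pathway that also yields NADPH, was at 6.39, 6.02 and 7.03 FPKM in WT and at 13.5, 19.7 and 14.9 in HET (1.17 ± 0.13, adjusted p = 0.00056). Ldha, lactate dehydrogenase A, was at 33.4, 33.6 and 38.8 FPKM in WT and at 67, 65 and 68.5 in HET (0.91 ± 0.12, adjusted p = 0.001), with an SD of 1.76 among the 3 HET libraries. Slc25a4, the mitochondrial ADP/ATP carrier, was at 5.1, 5.22 and 5.53 FPKM against 10.4, 12.5 and 9.44 (0.90 ± 0.14, adjusted p = 0.00254). Bdh2, a dehydrogenase of ketone and siderophore metabolism, was at 1.24, 0 and 1.86 FPKM against 10.3, 5.51 and 3.88 (1.94 ± 0.33, adjusted p = 0.00448). None of these 4 had an adipocyte or B cell slope past the threshold, and each was called in every fit that left out 1 saline library. In cholesterol synthesis, a separate pathway from the same precursor, 2 of 17 tested genes were higher and none was lower: Msmo1 was at 5.23, 3.38 and 3.73 FPKM in WT and 8.9, 12.8 and 8.42 in HET, and Pmvk at 2.15, 1.61 and 1.54 against 3.36, 4.21 and 4. The median of the 17 was 0.25, and the 18 respiratory chain genes had a median of 0.10 with none called.

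Calcium-binding and membrane-associated genes that acinar cells switch on when injured were partly higher in HET with saline alone. Of 16 tested dedifferentiation and injury markers, 6 were higher and none was lower, with a median of 0.77. S100a4 was at 5.71, 9.18 and 7.12 FPKM in WT and at 21.5, 35.6 and 41.6 in HET (1.99 ± 0.28, adjusted p = 0.0011). S100a11 was at 23, 23.3 and 21.7 FPKM against 51.1, 48.6 and 46.9 (1.07 ± 0.16, adjusted p = 0.00156), and its groups were tight and far apart. S100a6 was at 15.8, 32.1 and 25.2 FPKM against 45.7, 72.1 and 52.7, S100a10 at 11.5, 16.2 and 23.4 against 27, 43.7 and 33.4, Anxa2 at 19, 17 and 18.9 against 29.8, 59.5 and 58.4, and Lgals3 (galectin-3) at 4.28, 4.98 and 11.5 against 14.5, 33.8 and 29. These 6 genes are also expressed by macrophages and stroma. The epithelial members of the list were not called: Krt8 was at 76.5, 83.3 and 71 FPKM in WT and 87.9, 55.3 and 71.6 in HET, Krt18 at 157, 142 and 127 against 187, 111 and 135, and Cldn4 at 2.69, 1.49 and 0.952 against 0.189, 1.41 and 0.827. None of the 6 called genes had an adipocyte slope past the threshold. Capg, an actin-capping protein of macrophages, was at 5.04, 5.8 and 7.63 FPKM in WT and 24.4, 25.3 and 16.9 in HET (1.69 ± 0.28), and Emp3, a small membrane protein, at 3.53, 6.83 and 6.2 against 16.9, 26.2 and 17.6 (1.72 ± 0.28). Ifitm3, an interferon-induced membrane protein, was at 97.9, 106 and 94.4 FPKM against 239, 223 and 203 (1.15 ± 0.17, adjusted p = 0.00181).

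Transcripts of macrophages and connective tissue were above WT in most HET libraries. All 19 macrophage markers had positive differences with a median of 1.09, and 2 were called. Tyrobp, an adaptor of myeloid receptors, was at 7.24, 6.63 and 13.2 FPKM in WT and at 31.8, 39.5 and 34.9 in HET (1.91 ± 0.37, adjusted p = 0.0114), and was called in each fit that left out 1 saline library. C1qa, a subunit of complement C1q made by macrophages, was at 14, 16.5 and 25.1 FPKM against 41.2, 86.5 and 43.2 (1.52 ± 0.39, adjusted p = 0.0462). It was called in 1 of the 6 fits that left out 1 saline library. The macrophage marker mean was 2.26, 2.48 and 3.11 in the WT libraries against 3.20, 4.18 and 3.69 in HET, with a narrow gap between WT replicate 3 and HET replicate 1. All 18 fibroblast and stellate cell markers had positive differences with a median of 0.86, and 3 were higher. These were Vim (vimentin), at 22.9, 56.4 and 63.1 FPKM in WT and 87.7, 183 and 163 in HET, Sparc, at 48.1, 48.5 and 66.7 against 69.8, 134 and 134, and Postn (periostin), at 1.08, 1.51 and 2.91 against 4.35, 8.04 and 7.08. Of 27 chemokine and cytokine genes, 2 were higher. Ccl8 was at 0, 1.94 and 0.62 FPKM against 3.93, 24.3 and 9.69, and Cxcl16 at 1.88, 2.82 and 1.71 against 3.96, 6.6 and 5.13. Each was called in 2 of the 6 fits that left out 1 saline library. Endothelial markers gave a median of 0.11 over 12 genes, with none called. With the adipocyte covariate the macrophage and fibroblast medians were 0.18 and 0.15. In the caerulein animals 12 of the 19 macrophage and 7 of the 18 fibroblast markers had a positive B cell slope, against 6.29% of all genes tested. C1qa was among them (adjusted p of the slope = 0.00487). A positive adipocyte slope was found for 4 of the 19 macrophage and 4 of the 18 fibroblast markers, against 2.83% of all genes tested. The part of fat or lymphoid tissue in these differences was not tested beyond these values.

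Lymphocyte transcripts were uneven among the WT animals. The B cell marker mean was 0.29, 0.36 and 1.42 in the WT libraries against 0.95, 1.96 and 1.79 in HET, so WT replicate 3 lay within the HET range. None of the 10 tested B cell markers was called, with a median of 0.73. Cd79a, a chain of the B cell receptor, was at 0.491, 1.59 and 5.33 FPKM in WT and 2.41, 9.47 and 4.77 in HET, and Cxcl13, the B cell attractant of lymphoid stroma, at 0.159, 14.2 and 40.3 against 43.6, 166 and 110 (3.38 ± 1.76, adjusted p = 0.30). T cell markers were low: their summed level was 3.13 to 10.0 FPKM in WT and 3.87 to 10.4 in HET, and Cd3e reached at most 0.491 FPKM. None of 9 MHC class II genes was called, although 9 of 9 had positive differences with a median of 1.20. Cd74, the invariant chain, was at 35.3, 53.2 and 114 FPKM in WT and 141, 256 and 150 in HET. None of 12 complement genes was called either, with a median of 0.95, and C3 was at 43, 64 and 52.3 FPKM against 75, 332 and 149. With the adipocyte covariate the MHC class II and complement medians were −0.10 and −0.13. In the caerulein animals 9 of the 9 and 10 of the 12 genes had a positive B cell slope, against 6.29% of all genes tested. A positive adipocyte slope was found for 7 of the 9 and 9 of the 12, against 2.83% of all genes tested.

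In the caerulein animals, 808 genes had a positive slope on the B cell marker mean (6.29%) and 126 a negative one (0.981%). All 10 tested B cell markers also had a positive adipocyte slope, and 10 of the 12 adipocyte markers had a positive B cell slope. A slope on either mean is therefore not specific to that cell type. Among the saline calls, 32 of 147 higher genes (21.8%) had a positive B cell slope and 2 lower genes a negative one. Either slope was positive in 35 of the 147 (23.8%), and in 2 of the 30 higher genes (6.67%) that were called in each of the 6 fits with 1 saline library left out. The share of all genes with either slope was not counted, and the single shares were 2.83% (adipocyte) and 6.29% (B cell). The 6.67% is near the B cell share, so it marks no trait of these 30 genes. The 934 B cell slopes in both directions fell to 589, 162 and 267 without the 8, 24 or 48 h groups. With the B cell mean as a covariate 149 genes were called, with the adipocyte and B cell means together 10, and with Xist 229, and no called gene of either direction changed sign in these fits. With both means, the 10 were Bdh2, Chil1, Ldha, Pgd and Tonsl, higher, and Gpc1, Pik3ap1, Ppp1r1b, Shisa4 and Zfand1, lower. What part fat, lymphoid tissue, myeloid cells or sex play in the other calls was not tested beyond these values.

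**Figure D3:**
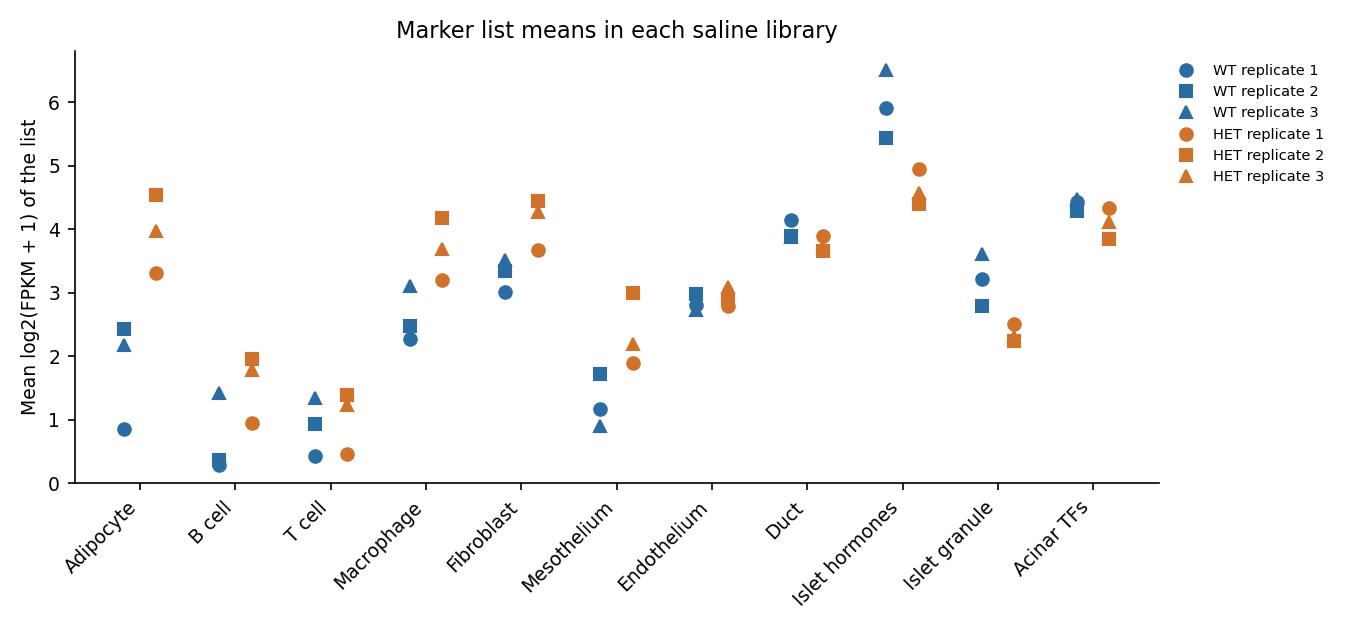
Mean log2(FPKM + 1) of 11 marker lists (vertical axis) in each of the 6 saline libraries; blue is WT, orange HET, and the symbol gives the replicate. Adipocyte, macrophage, fibroblast and mesothelium means are higher in every HET than in every WT library, islet means are lower, and B cell, T cell and duct means overlap.

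The lower genes described next were named for their small adjusted p or large fold and belong to no common list. Ppp1r1b (DARPP-32), an inhibitor of protein phosphatase 1, was at 11.4, 13.9 and 14.2 FPKM in WT and at 4.23, 2.14 and 1.59 in HET (−2.01 ± 0.24, adjusted p = 0.00056). Il4i1, a secreted amino acid oxidase, was at 10.7, 11.2 and 5.18 FPKM against 0.797, 0.621 and 1.88 (−2.24 ± 0.30, adjusted p = 0.001). Gpc1, the cell-surface proteoglycan glypican-1, was at 2.77, 3.3 and 4.79 FPKM against 0.714, 0.959 and 0.685 (−1.35 ± 0.17, adjusted p = 0.000815). Pik3ap1, an adaptor of PI3-kinase, was at 14, 16.9 and 17.1 FPKM against 7.99, 7.37 and 8.02 (−0.95 ± 0.14, adjusted p = 0.0011). Groups without overlap were required by the rule that named these genes. All 4 were called in each fit that left out 1 library and with the adipocyte covariate. Inpp1, an inositol polyphosphate phosphatase, was at 12.5, 9.09 and 13.4 FPKM in WT and 3.47, 4.5 and 5.05 in HET. Map2k5, the kinase that activates ERK5, was at 3.12, 3.74 and 3.09 FPKM against 1.46, 1.14 and 1.52, and Pkd1l2, a polycystin-like membrane protein, at 2.24, 2.48 and 3.3 against 0.4, 0.476 and 0.219. Usp46os2 was at 1.74, 2.25 and 2.15 FPKM in WT and 0, 0.228 and 0 in HET; it is named as an opposite-strand transcript, and without a stated strand its reads cannot be told apart from those of its partner gene.

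**Figure D4:**
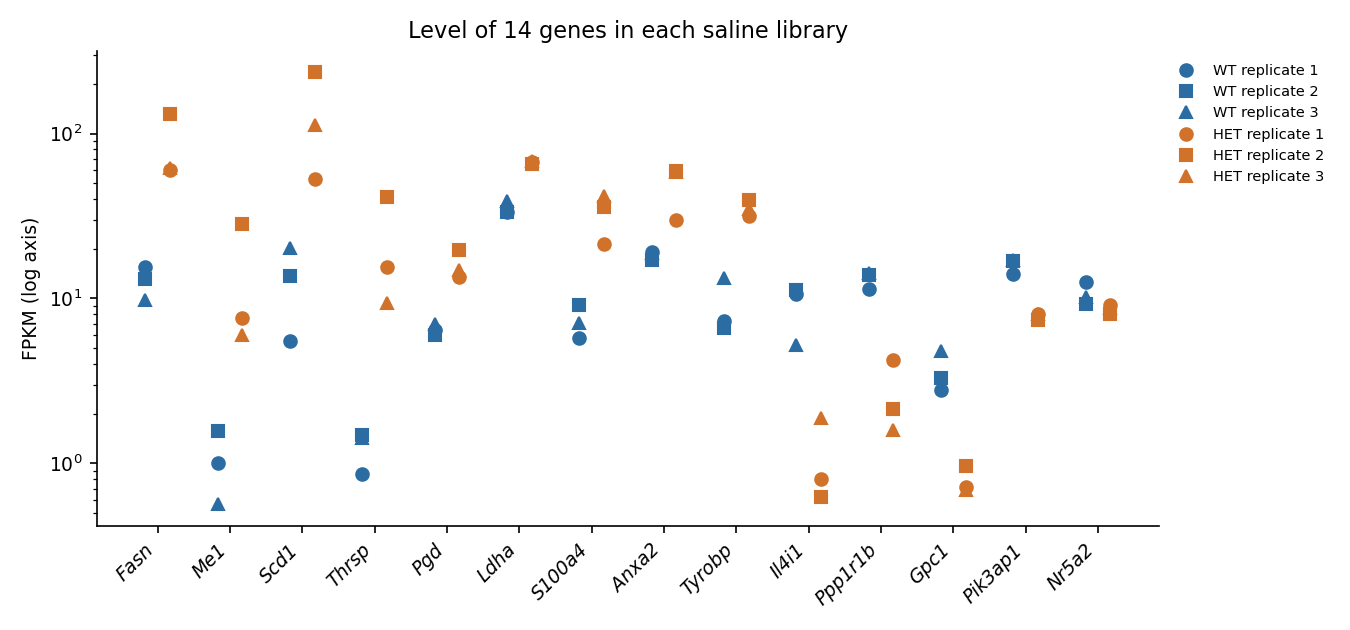
FPKM (log axis) of 14 genes in each saline library; blue is WT, orange HET, and the symbol gives the replicate. The groups do not overlap for any of the 14, which the naming rule required for most of them. Over all genes tested, 17.4% do not overlap. The gap is wide for Fasn, Me1 and Ppp1r1b. It is narrow for Nr5a2, with the lowest WT library at 9.26 and the highest HET library at 9.09.

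Dbp, a PAR bZIP transcription factor with a strong daily rhythm, was at 2.51, 1.94 and 1.98 FPKM in WT and at 0.191, 0.472 and 0.523 in HET (−1.18 ± 0.23, adjusted p = 0.0132). It was the only one called among 13 tested clock genes. Nr1d1, another output of the clock, was at 6.96, 8.41 and 3.65 FPKM in WT and 3.37, 4.4 and 2.7 in HET, and Clock itself at 4.17, 3.24 and 4.1 against 1.96, 2.5 and 3.13 (−0.46 ± 0.14, adjusted p = 0.084). The hour at which each animal was killed is not in the labels. In the Notch pathway 1 of 9 genes was lower: Notch1 was at 6.15, 7.39 and 4.7 FPKM in WT and 1.27, 1.65 and 1.56 in HET (−1.49 ± 0.37, adjusted p = 0.0372), but it was called in none of the fits that left out 1 saline library. Its target Hes1 was at 5.36, 4.99 and 3.55 FPKM against 6.51, 4.25 and 4.04. In the unfolded protein and amino acid stress response 1 of 20 genes was lower. That gene was Ern1, which encodes the sensor IRE1 alpha of the endoplasmic reticulum, at 7.81, 6.18 and 7.32 FPKM in WT and 4.76, 4.55 and 4.65 in HET (−0.51 ± 0.12, adjusted p = 0.0329). Ern1 was called in 2 of the 6 fits that left out 1 saline library. The share of lower genes over all genes tested was 1.21%, and a single called gene is not a result about its list.

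Endocrine transcripts had negative differences across most islet lists, and 3 of them passed the test. All 8 islet hormone genes had negative differences with a median of −1.35, and none was called. Ins2, insulin, was at 2580, 2280 and 3990 FPKM in WT and at 908, 777 and 1200 in HET, without overlap (−1.60 ± 0.61, adjusted p = 0.158), and Gcg, glucagon, at 191, 92.1 and 366 against 107, 57.3 and 68.5. Of 12 granule and prohormone processing genes, 2 were lower and none was higher, with a median of −0.92. Scg3 (secretogranin III) was at 5.27, 3.71 and 7.29 FPKM in WT and 1.04, 1.38 and 1.05 in HET (−1.54 ± 0.33, adjusted p = 0.0212), and Pcsk2, a prohormone convertase, at 5.21, 2.83 and 6.85 against 1.07, 1.25 and 1.4 (−1.35 ± 0.35, adjusted p = 0.0479). Glp1r, the receptor for the incretin GLP-1, was the 1 lower gene of 6 glucose sensing genes, at 5.68, 7.35 and 9.28 FPKM against 1.4, 3.32 and 3.64 (−1.19 ± 0.25, adjusted p = 0.0197). The islet transcription factors gave a median of −0.06 over 4 tested genes. With the mean of the islet hormone and granule genes as a covariate, 52 genes were called in the whole comparison.

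Few genes of the exocrine program were called at rest, in a test whose spread includes the caerulein groups. Of 15 proteases and 7 lipases and amylases past the filter, 8 and 4 could be tested, and the others were treated as missing. Of 8 tested digestive proteases, 4 lipases and amylases, 12 other secretory genes and 6 Reg genes none was called, and the medians were −0.08, −0.11, 0.03 and −0.05. None of 11 acinar transcription factors was called, with a median of −0.32. Ptf1a, the DNA-binding part of PTF1, was at 64.9, 44.7 and 42.5 FPKM in WT and 37.6, 25.1 and 41.6 in HET. Its partner Rbpjl was at 80.7, 80.7 and 58.7 FPKM against 54.3, 50.8 and 65.8. Bhlha15 (Mist1), which sets up the secretory apparatus, was at 74.5, 71.6 and 76.7 FPKM against 58.7, 43.7 and 59 (−0.47 ± 0.46, adjusted p = 0.611), with no overlap. Its standard error was 0.18 in the fit of the saline libraries alone (adjusted p = 0.409), so an uncalled acinar gene is not shown to be unchanged. After caerulein the difference in Bhlha15 was −0.12 at 8 h, −3.38 at 24 h and −3.51 at 48 h.

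Glandular kallikreins, serine proteases that pancreas and salivary gland secrete, were the exocrine family with the lowest median in this comparison, −0.97 over 8 tested genes, all of them negative. Klk1 was at 11300, 9930 and 8900 FPKM in WT and 7740, 3700 and 5120 in HET (−0.92 ± 0.62, adjusted p = 0.429), without overlap. Klk1b11 was at 16.3, 29.6 and 32.1 FPKM in WT and 13.8, 3.64 and 4.02 in HET, and Klk1b24 at 14, 9.21 and 11.1 against 5.86, 3.16 and 4.69. Both were lower in saline (−1.89 ± 0.41 and −1.17 ± 0.25, adjusted p = 0.0212 each) and in the mean of the caerulein differences (−2.57 ± 0.23 and −1.23 ± 0.14). With 1 saline library left out, the saline call held in 2 of the 6 fits for Klk1b11 and in 4 for Klk1b24. The Klk1b genes are near copies of each other, and reads of one can be counted to another.

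Among genes of cell division 3 were higher in HET and none was lower. All 17 DNA replication genes and all 17 mitosis genes had positive differences, with medians of 0.54 and 0.49. With the adipocyte covariate the medians were 0.22 and 0.15, and 6 replication and 5 mitosis genes had a positive B cell slope, against 6.29% of all genes tested, among them Mcm5 (adjusted p of the slope = 0.0111) and Birc5 (0.0497). A positive adipocyte slope was found for 1 of the 17 replication genes and 0 of the 17 mitosis genes. The part of B cells in these differences was not tested beyond these values. Mcm5, a subunit of the replicative helicase, was at 0.377, 0.408 and 0.858 FPKM in WT and 1.48, 2.02 and 3.12 in HET (1.03 ± 0.23, adjusted p = 0.0273). Pcna, the sliding clamp, was at 11.3, 7.55 and 11.3 FPKM against 14.5, 16 and 14.3, and Birc5 (survivin) at 0, 0.341 and 0.652 against 1.55, 1.71 and 1.44. Birc5 was called in 1 of the 6 fits that left out 1 saline library. Mki67, the proliferation marker Ki-67, was at 0.125, 0.0202 and 0.368 FPKM in WT and 0.153, 0.774 and 1.13 in HET, and was not called. Tonsl, a recombination factor at stalled replication forks, was at 0.477, 0.0998 and 0.424 FPKM against 2.45, 2.22 and 1.72 (1.24 ± 0.17, adjusted p = 0.001).

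Nr5a2 lies on chromosome 1, and genes near it are inherited together with the altered allele. Among the 50 tested genes on each side of Nr5a2, 6 of 100 were called (6.0%), against 22 of 706 on the whole chromosome (3.12%). BC034090 was at 3.04, 5.73 and 7.13 FPKM in WT and at 0.842, 0.905 and 0.739 in HET (−1.73 ± 0.24, adjusted p = 0.001). It was also lower after caerulein, by −1.27, −1.56 and −1.75 at 8, 24 and 48 h, so it was lower in HET in 4 of 4 conditions. Chil1, a chitinase-like secreted protein, was at 1.15, 0 and 0 FPKM against 2.72, 4.76 and 5.46 (2.0 ± 0.36, adjusted p = 0.00669). The other 4 were Phlda3, higher, at 1.68, 2.32 and 2.08 FPKM against 4, 8.69 and 4.87, and 3 lower genes. These were Ivns1abp at 36.7, 27.9 and 34.6 FPKM against 26.7, 18.7 and 20.7, Shisa4 at 2.47, 5.49 and 4.77 against 2.02, 2.24 and 1.8, and Sox13 at 3.62, 3.02 and 3.69 against 1.42, 1.37 and 1.95. BC034090 and Chil1 were called in each of the 6 fits that left out 1 saline library. Phlda3 was called in 4 of them, and Ivns1abp, Shisa4 and Sox13 in 2 each. Whether the position has a part in these calls was not tested.

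NR5A2 binds the letters CAAGGTCA or CAAGGCCA, and both were searched on both strands in the 250 bases before and 50 after the start of each gene in RefSeq (build GRCm38.p6). Either was present in 3.92% of all 32851 promoters, 1.56% and 2.4% for the 2 versions, and in 3.57% of the 9380 promoters of tested genes. It was present for 5 of 108 higher genes (4.63%), 2 of 116 lower genes (1.72%) and 1 of 49 genes called in each of the 6 fits with 1 library left out (2.04%). Promoter stretches are shown for 3 of the higher genes and for 2 genes of the NR5A2 field that were not called, with the match in capitals and 30 flanking bases, 5′ to 3′ along the gene. Chil1 (chr1:134182052-134182119, plus strand), Elovl6 (chr3:129532169-129532236, plus strand) and Birc5 (chr11:117849135-117849202, plus strand) were higher in HET. Nr0b2 (chr4:133553145-133553212, plus strand), which encodes SHP and is a known NR5A2 target in liver, and Bhlha15 (chr5:144190050-144190117, plus strand), the acinar factor described above, were not called.
Chil1: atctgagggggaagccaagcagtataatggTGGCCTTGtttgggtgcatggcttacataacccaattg
Elovl6: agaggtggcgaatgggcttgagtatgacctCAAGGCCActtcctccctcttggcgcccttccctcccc
Birc5: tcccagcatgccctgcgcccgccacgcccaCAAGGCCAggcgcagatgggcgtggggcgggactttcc
Nr0b2: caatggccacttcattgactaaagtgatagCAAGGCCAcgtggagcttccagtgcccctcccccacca
Bhlha15: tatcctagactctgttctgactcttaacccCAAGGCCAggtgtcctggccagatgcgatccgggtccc
In Chil1 the match is on the opposite strand and reads as TGGCCTTG along the gene. These are matches of letters, not measured sites. Of 8 tested genes on a list of NR5A2 targets of liver and other tissues none was called, with a median of −0.14, and Nr0b2 was at 4.81, 6.02 and 9.46 FPKM in WT and 7.49, 3.35 and 7.86 in HET.

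The caerulein groups share no library with the saline groups, so their genotype differences can be set beside the saline ones. Both come from 1 fit with a shared spread for each gene, so a gene of small spread is favoured in both tests. The mean of the 3 caerulein differences was called in 2205 of 12845 genes (17.2%), 1211 higher (9.43%) and 994 lower (7.74%). This split depends on the kind of scaling. With each library scaled to its total without acinar genes, 3509 genes were called, 3128 higher and 381 lower. The median over all genes then moved from 0.015 to 0.22. With median ratio scaling 2213 genes were called, 1131 higher and 1082 lower. Of the higher saline genes, 44 of 147 (29.9%) were also higher in that mean, which is 3.63% of its 1211, and 4 were lower. Of the lower saline genes, 54 of 155 (34.8%) were also lower, which is 5.43% of its 994, and 3 were higher. At the single times, 0, 15 and 36 of the higher genes and 2, 24 and 40 of the lower genes were called in the same direction at 8, 24 and 48 h. The median caerulein difference was 0.20 among the higher and −0.17 among the lower genes, against 1.04 and −0.71 in saline. These genes were chosen by their saline difference, so smaller values in other animals can follow from that choice alone.

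S100a11 had the same direction as in saline at 24 h (1.43) and 48 h (1.15) but was at 0.07 at 8 h. Ppp1r1b was lower at 24 h (−1.52) and 48 h (−2.05), with −0.85 at 8 h, and its caerulein mean was −1.47 ± 0.14 (adjusted p = 4.33e-06). Pgd was higher at 24 h (0.55) and 48 h (0.73), and Ldha at 24 h (0.48) and 48 h (0.53). Fasn had caerulein differences of 0.11, −0.29 and −0.95 and Thrsp of 0.32, −1.86 and −1.78, none of them called at a single time. Over the 21 genes of fatty acid and triglyceride synthesis the median caerulein difference was −0.25. In the caerulein mean 7 of the 21 were lower in HET and none was higher. The saline value minus the caerulein mean contains the difference by which the saline calls were chosen, which favours them in that test. The test called 112 genes (0.872%), among them 25 of the higher and 27 of the lower saline genes. Fasn (2.93 ± 0.41, adjusted p = 0.00378), Me1 (2.45 ± 0.40, adjusted p = 0.0088), Thrsp (4.22 ± 0.70, adjusted p = 0.0103) and Dgat2 (3.0 ± 0.63, adjusted p = 0.0346) were among them, and Scd1 was not (3.41 ± 0.82, adjusted p = 0.0538).

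**Figure D5:**
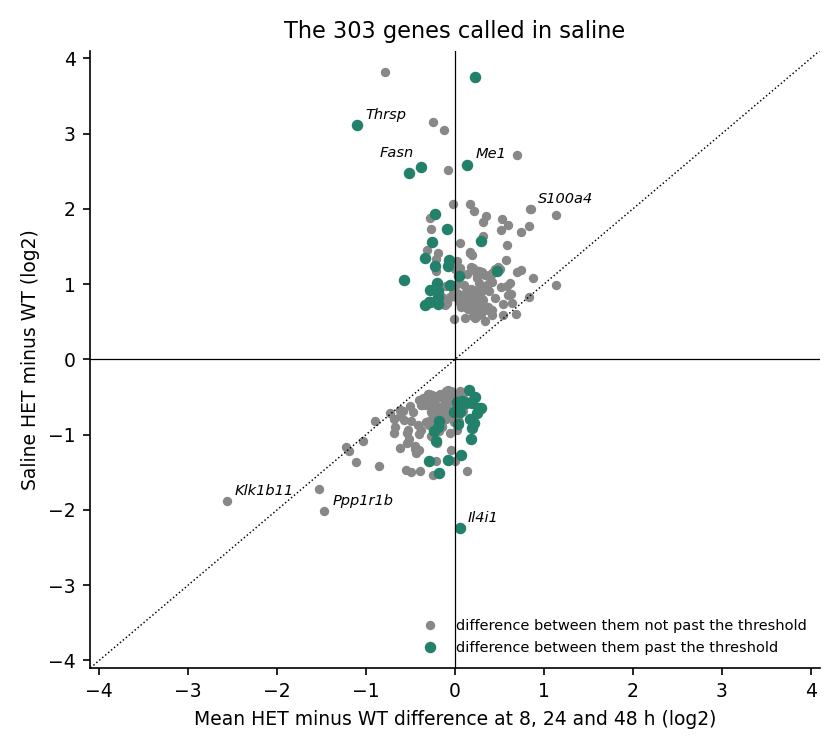
Saline HET minus WT difference (log2, vertical axis) of the called genes that have both values against the mean HET minus WT difference at 8, 24 and 48 h of caerulein (log2, horizontal axis); each point is a gene, green where the 2 differences differ past the threshold, and the dotted line marks equal values. Fasn, Me1, Thrsp and Il4i1 are green and lie near or across 0 on the horizontal axis, while Ppp1r1b and Klk1b11 lie near the line.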

How the data were processed

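The authors deposited FPKM, 1 value per Ensembl gene and library, for 36806 genes. The unit was inferred from the tools, since the table's header names none. The submitters' processing notes list Bowtie, Cufflinks 2.0.2, Cuffnorm, CASAVA 1.8 and build mm9, without saying what each was used for. How libraries were scaled to each other, and which annotation was used, is not given in the sources read here.

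From these values log2(FPKM + 1) was computed, and limma 3.58.1 in R 4.3.3 was fitted to all 24 libraries with a mean for each group, which leaves 16 residual degrees of freedom, and with trend and robust moderation. Tests were two-sided with Benjamini-Hochberg adjustment over all genes tested, and the fit was tested on simulated data. The 12855 genes tested in saline have at least 1 FPKM in 3 libraries. A gene listed at 0 throughout a group, with at least 100 FPKM in each library of another group, was treated as missing in that group, and so were neighbours with the same pattern (27 genes over all groups). Replicates were numbered by accession order. Nothing in the labels says how the animals of a group are related, so p-values measure the spread between these samples.

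Named genes were Nr5a2, up to 12 per direction by adjusted p, by fold and by fold among genes called without each single saline library (official symbol, at least 1 FPKM in the higher group, no overlap), up to 6 called members of each of 46 gene lists or up to 3 as values, and a few markers. This gave 163 genes, without 1 chosen by the rule that is not reported here. Genes of these lists that are given as values beyond the rule were chosen after their values were seen, as were the 6 called neighbours of Nr5a2. Members and lists were chosen with earlier results of these data known. Alternatives were other pseudocounts, filters, sets of libraries, moderation and scalings, marker means as covariates and leaving out each saline library, and Xist as a covariate was added after seeing the data. Depth relative to WT replicate 1 was read from the steps between values under 0.5 FPKM. Reads were not analysed here. Python 3.11.15, pandas 2.3.3, numpy 2.4.6 and matplotlib 3.10.9 were used for tables and plots.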

Additional observations from a re-analysis of the deposited data

Results flagged for a closer look

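For 20 named genes the genotype difference in saline differed from the mean genotype difference after caerulein, by limma's test of the difference itself (adjusted p under 0.05 over all genes tested). The values here are the saline difference minus the caerulein mean, in log2 units. Most of these genes were named for their saline difference, which is part of these values. Genes of fatty acid and triglyceride synthesis had the largest ones: Thrsp 4.22, Dgat2 3.0, Fasn 2.93 and Me1 2.45. Other genes higher in saline were Bdh2 at 2.17, Lyrm7 at 1.68, Snx21 at 1.38, Tonsl at 1.32, Lypd1 at 1.28 and Pgd at 0.701. Among genes lower in saline the values were −2.29 for Il4i1, −1.34 for St18, −1.33 for Usp46os2, −1.26 for Ddx51, −1.05 for Gpc1, −0.901 for Map2k5, −0.875 for Zfand1, −0.711 for Pik3ap1 and −0.634 for Ubr2. Hnf4a, a hepatocyte and epithelial nuclear receptor, had −1.12. It was not called in saline, at 6.48, 5.87 and 8.21 FPKM in WT and 3.13, 4.83 and 2.98 in HET (−0.77 ± 0.20, adjusted p = 0.052), while it was higher in HET at 24 h (0.96, adjusted p = 0.0087). The caerulein mean joins libraries of both library guides, while the saline libraries are listed under the earlier guide except WT replicate 3, which is in neither list, so treatment and guide cannot be fully told apart in these values.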

How the results depend on the processing

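No paired analysis was possible because the replicate numbers come from accession order and the labels pair no animals. The count of 303 saline calls became 153 among genes averaging 5 FPKM or more, 1 in the saline libraries alone (2544 genes were at an unadjusted p under 0.05 in all groups and 1482 there), 38 in the saline and 24 h groups, 10 with scaling to the total without acinar genes, 6, 149 and 10 with the adipocyte, the B cell and both marker means, 52 with the islet mean, and 117 to 437 with 1 saline library left out. In the total scaling 6 genes were higher and 4 lower, in place of 148 and 155. The count of saline calls was 445 with no filter, 277 with median ratio scaling and 229 with Xist. The 98 calls shared with the caerulein mean became 62 (mean of at least 5 FPKM), 4 (total scaling), 3, 56 and 5 (adipocyte, B cell, both), 14 (islet) and 43 to 146 with 1 library left out. The 112 genes whose saline and caerulein differences differed became 45 (mean of at least 5 FPKM), 9 (total scaling), 3, 59 and 3 (adipocyte, B cell, both), 435 (islet), 42 (Xist) and 56 to 210 with 1 library left out. Adipocyte slopes fell from 387 to 225 with a pseudocount of 0.1 and to 164, 82 and 31 without the 8, 24 or 48 h groups, and B cell slopes from 934 to 589, 162 and 267 without them. Fewer samples or genes were used in the smaller fits, and for the other settings the cause was not tested. The 2205 calls in the caerulein mean became 3509 with total scaling (3128 higher and 381 lower) and 1421 among genes averaging 5 FPKM or more, and lay between 1616 and 3147 in its other settings. Nr5a2 was uncalled in each setting, with values from −0.36 to −0.016, the smallest with the islet and adipocyte means.

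No called named gene changed sign under any alternative. Some that were not called did, and stayed uncalled. With the adipocyte mean as a covariate these were Amy1 0.13, C1ra −0.070, Cd3d −0.20, Cd79a −1.81, Cd79b −0.84, Cfd −0.56, Clps 0.10, Csf3r −0.25, Cxcl13 −1.85, Ddx3y 0.20, Fcrla −0.48, Foxa2 0.12, Jchain −1.87, Kdm5d 0.19, Ms4a1 −1.09, Mzb1 −0.23, Nr0b2 0.20, Pnliprp2 0.022, Ptprc −0.15, Reg3b 0.63, S100a8 −0.91, S100a9 −0.29 and Uty 0.027. With the B cell mean they were Amy1 0.10, Cd79a −0.39 and Clps 0.055. With both they were Cd79a −0.87, Cfd −0.77, Cxcl13 −0.81, Dio2 0.027, Esam −0.084, Foxa2 0.035, Jchain −1.23, Nr0b2 0.19, Reg3b 1.28 and S100a8 −0.36. With the islet mean they were Amy1 0.69, Aqp12 0.28, Bhlha15 0.43, Clps 1.15, Csf3r −0.24, Dio2 0.13, Gatm 0.13, Gcg 0.37, Ins2 0.10, Klk1 0.24, Nr0b2 0.37, Pnliprp2 0.78, Ptf1a 0.28, Rbpjl 0.26 and Reg3b 1.19. With Xist it was Insm1 at 0.021. With 1 saline library left out, differences ranged from −0.19 to 0.052 for Amy1, −0.49 to 0.051 for Clps, −0.078 to 0.024 for Dio2, −0.0047 to 0.345 for Hba-a1, −0.017 to 0.52 for Hbb-bt, −0.31 to 0.20 for Nr0b2, −0.039 to 1.09 for Reg2, −1.37 to 0.47 for Reg3b, −0.13 to 1.60 for Reg3g, −0.026 to 0.42 for Rps2 and −0.0115 to 0.49 for Tcf7.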

Other observations

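Other marker lists gave few calls in saline. None of 6 mesothelium markers was called, although all 6 had positive differences with a median of 1.05, and Msln (mesothelin) was at 1.37, 1.99 and 0.8 FPKM in WT and 3.33, 4.96 and 2.61 in HET. With the adipocyte covariate the mesothelium median was 0.18, and 4 of the 6 had a positive B cell slope, against 6.29% of all genes tested. A positive adipocyte slope was found for 3 of the 6, against 2.83% of all genes tested. None of 4 plasma cell markers was called, and Jchain, the joining chain of secreted antibodies, was at 0.388, 6.55 and 11.2 FPKM in WT and 13.5, 61.4 and 30.3 in HET (2.60 ± 1.46, adjusted p = 0.338). Of 15 interferon response genes, 16 AP-1 and immediate early genes, 9 heat shock genes, 8 neutrophil markers and 5 red blood cell markers none was called, with medians of 0.26, 0.56, 0.23, 0.54 and 0.21. Irf7, an interferon-induced transcription factor, was at 2.72, 1.69 and 3.42 FPKM in WT and 6.92, 10.4 and 9.58 in HET (1.48 ± 0.50, adjusted p = 0.11). Among acute phase genes Hp, haptoglobin, was at 1.49, 28.2 and 17.1 FPKM against 49.7, 85.4 and 178, with an adipocyte slope of 1.62 in the caerulein libraries (adjusted p = 5.11e-06).

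Among single genes with a large fold, Lcat, the enzyme that esterifies cholesterol in plasma, was lower in HET at 4.78, 3.85 and 0.729 FPKM against 5.81, 9.65 and 10.4 in WT (−1.36 ± 0.32, adjusted p = 0.0329). It was also lower after caerulein (−1.12 ± 0.19, adjusted p = 0.000498). Apod, a lipid-binding apolipoprotein, was lower at 2.34, 1.83 and 3.21 FPKM against 7.39, 11.2 and 7.76 in WT. Mrap, the accessory protein of the ACTH receptor, was at 0 FPKM in the 3 WT libraries and at 1.9, 5.85 and 2.7 in HET, and had a positive slope on the adipocyte mean (0.60, adjusted p = 0.027). Ltc4s, the leukotriene C4 synthase of myeloid cells, was higher in HET at 3.27, 11.1 and 10.7 FPKM against 0.555, 0.72 and 2.07. Lypd1, a small membrane-anchored protein, was higher at 4.89, 2.75 and 2.54 FPKM against 0.248, 0.482 and 0.614 in WT, and was called in each fit that left out 1 saline library. Lcat was called in 3 of those 6 fits, and Apod and Ltc4s in 2 each. The part of fat, stroma or sex in these single genes was not tested beyond the slopes given.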
